A study of Homo sapiens with 9 samples.

Results

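Interferon-stimulated genes are induced when a cell senses an interferon or viral nucleic acid, and 51 of them were chosen by symbol from the 60199 symbols of a human RNA count table. All 51 were in the table with at least 1 count, and 46 passed the filter on low counts that left 15717 genes for testing. RNA was compared between 3 lines with 3 cultures each. All were MCF10A cells, a nonmalignant human mammary epithelial line in which CDKN2A is deleted. The CT cultures were the parental cells, not transformed and grown without added BMP2 or IL6. MC26 cells had been derived from unsorted MCF10A by long exposure to BMP2 and IL6. M1B26 cells had been derived the same way from MCF10A sorted for the BMP receptor BMPR1B, from soft-agar clones that were then expanded. Both transformed lines were cultured with BMP2 and IL6, so the line and the 2 cytokines in its medium cannot be told apart. MC26 and M1B26 were each compared with the same CT libraries, and then with each other.

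Interferons bind receptors at the cell surface, whose kinases JAK1 and TYK2 phosphorylate STAT proteins. STAT2 and IRF9 take part in a complex that binds the interferon-stimulated response element (ISRE) in promoters, while STAT dimers bind the gamma-activated site (GAS). The genes induced in this way encode sensors of viral RNA, enzymes that cut, edit or trap it, proteins that block entry at membranes, and feedback inhibitors, and many are also transcribed at a low level in epithelial cells that have met no interferon.

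Promoters from 250 bases before to 50 bases after each RefSeq start (build GRCh38.p14) were searched on both strands for an ISRE core (GAAA, any 2 bases, GAAA) and a GAS core (TTCNNNGAA). A promoter was listed for 40 of the 51 genes, and not for IRF7, DHX58, OAS2, OASL, IFIT2, IFITM2, LY6E, MX2, GBP2, USP18 and TRIM22. The ISRE core stood in 27 of the 40 (67.5%), against 4.38% of 27305 genes with a promoter. The GAS core stood in 14 of the 40 (35.0%), against 9.38%, and the letters of the cores can overlap, as in IFITM1 and EPSTI1. Windows from some of the genes whose levels differed between the lines are shown first, 5′ to 3′ on the strand of the gene, with the matching letters, or their reverse complement, in capitals. These are chr4:88457035-88457064 (plus strand) for HERC5, chr15:88638937-88638966 (plus) for ISG20, chr1:27672288-27672317 (minus) for IFI6, chr1:1013380-1013409 (plus) for ISG15 and chr7:140062942-140062971 (minus) for PARP12. The SAMD9 window, chr7:93118096-93118125 (minus), is shown because its neighbour SAMD9L had no ISRE core.
HERC5: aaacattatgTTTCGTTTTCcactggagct
ISG20: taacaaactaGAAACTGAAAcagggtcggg
IFI6: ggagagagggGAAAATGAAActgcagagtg
ISG15: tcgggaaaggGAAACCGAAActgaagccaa
PARP12: ccggggccgcTTTCGGTTTCgtttcccgcc
SAMD9: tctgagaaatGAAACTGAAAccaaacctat

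A GAS core without an ISRE core was found in the promoters of several genes described below, of which IRF9 at chr14:24161192-24161220 (plus strand) and IFI35 at chr17:43006752-43006780 (plus) are shown.
IRF9: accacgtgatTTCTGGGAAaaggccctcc
IFI35: aggcagggatTTCACGGAAatgaaagtgg
A match describes the letters of a window and was not tested for binding. Of the 40 genes, 25 with an ISRE core and 11 without one could be tested, and calls in both directions were found among each. Genes with the core counted 7 higher and 3 lower in MC26 than in CT and 6 higher and 4 lower in M1B26, and those without it counted 6 and 1, then 5 and 3. Over all genes tested, 18.8% were higher and 19.9% lower in MC26, and 25.2% were higher and 23.7% lower in M1B26.

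Total counts ran from 21425118 to 80076597 per library, so 3 counts, taken as the limit of detection, stood for at most 0.131 CPM (counts scaled to the TMM-adjusted library total). Levels are given as CPM per library in the order of replicates 1 to 3, and log2 fold changes with their standard error (SE, n = 3 per line) come from edgeR's quasi-likelihood test with Benjamini-Hochberg adjustment over all 15717 genes. A gene was called at an adjusted p under 0.05. The sources describe the cultures as independent, but not whether they were separate clones, so p-values measure the spread between these libraries. In bulk RNA, fewer cells that express a gene and less RNA per cell cannot be told apart. Whether counting used strand was not stated, so reads of IRF1 and SP110 cannot be told from those of antisense genes that overlap 2805 and 1898 of their exonic bases, and IFI6, GBP2 and TRIM22 overlap 216, 621 and 642 bases of other genes on their own strand. All 8 mammary epithelial markers were above 1 CPM in every library, but their levels differed between the lines. In MC26 6 were called against CT (75%, against 38.7% of all genes), 2 higher and 4 lower. In M1B26 5 were called (62.5%, against 48.9%), 2 higher and 3 lower. In CT, MC26 and M1B26 the means were 54.1, 1097 and 548 CPM for KRT14 and 70.4, 14.8 and 72.1 for EPCAM. Of 8 leukocyte markers 5 were at 0 in all libraries and PTPRC had at most 4 counts in a line, while CD14 made up nearly all of their sum, which was 7.03 to 11.1 CPM in CT, 9.75 to 17.9 in MC26 and 34.0 to 47.9 in M1B26. The summed endothelial markers were 7.53 to 7.78, 1.02 to 1.39 and 2.84 to 4.91 CPM, and the fibroblast markers 37.4 to 37.8, 17.1 to 56.8 and 28.5 to 39.9 CPM. The fibroblast sum joined genes that went in opposite directions. From CT to M1B26, mean CPM went from 0.108 to 5.11 for LUM and from 7.73 to 15.4 for COL1A1. It went from 29.0 to 14.0 for DCN and from 0.738 to 0.489 for PDGFRB. The part of these differences in the results was not tested.

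In MC26, 22 of the 46 tested interferon-stimulated genes differed from CT (47.8%), against 38.7% of all genes tested. Of these, 16 were higher (18.8% of all genes were) and 6 were lower (19.9%), and 4 differed at least 2-fold (10.8%), namely SAMD9L, OASL and OAS2, which were higher, and OAS1, which was lower. The values of MC26 and CT did not overlap for 29 of the 46, and for 50.3% of all genes. Their median log2 fold change was 0.25, beside 0.0010 over all genes. Scaled by total counts alone, 13 genes were higher and 6 lower, and the share of higher genes among all calls moved from 48.5% to 35.8%.

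In M1B26, 23 of the 46 differed from CT (50%), a share close to the 48.9% of all genes. There were 15 higher (25.2% of all genes) and 8 lower (23.7%). At least 2-fold differences were found for 8 (11.7%), with SAMD9L, OASL, IFI35, ISG20, IFI6 and DHX58 higher and HERC5 and GBP2 lower. Values did not overlap for 27 of the 46, and for 59% of all genes. The median log2 fold change was 0.24, beside 0.0019 over all genes. Under total counts alone 12 were higher and 10 lower, and the share of higher genes among all calls moved from 51.5% to 39.6%.

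Between the transformed lines, 20 of the 46 differed (43.5%), against 39.5% of all genes. In M1B26 13 were higher (21.2% of all genes) and 7 lower (18.4%), and the median was -0.05, beside -0.0014 over all genes. Differences of at least 2-fold, found for 8.17% of all genes, were seen for 4, DHX58 and ISG20 being higher and HERC5 and OAS2 lower in M1B26. Values did not overlap for 24 of the 46, and for 53.5% of all genes. In all, 35 of the 46 were called in at least 1 comparison, as were 67.8% of all genes, and 11 in none. IRF9, OASL, IFIT3, HERC6, SAMD9L, SP110 and IFI35 were higher than CT in both lines, OAS1, EIF2AK2, PARP14 and GBP2 were lower in both, and HERC5 was higher in MC26 and lower in M1B26.

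**Figure D1:**
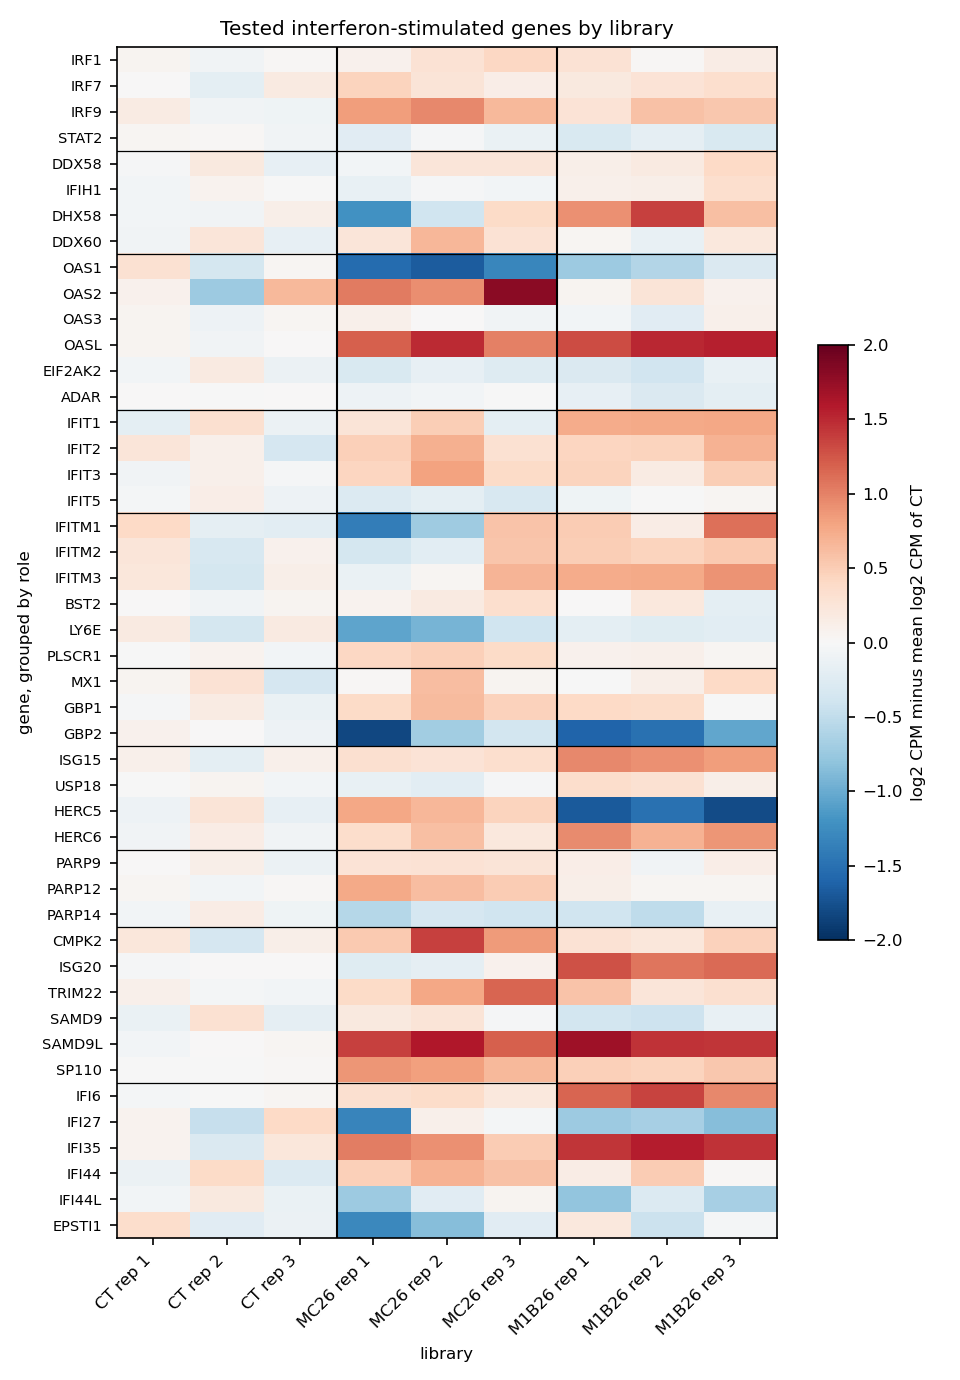
Each cell shows the log2 CPM of 1 of the 46 tested genes in 1 library minus the mean log2 CPM of the 3 CT libraries, with genes grouped by role and colours limited at -2 and 2. HERC5 was above CT in the MC26 libraries and below it in the M1B26 libraries, while OASL and SAMD9L were above CT in all 6 transformed libraries and OAS1 was lowest in MC26.

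Among the transcription factors, IRF9, the DNA-binding subunit of the complex with STAT2, was higher in both transformed lines. It stood at 5.44, 4.59 and 4.55 CPM in CT, 8.65, 9.47 and 7.65 in MC26 and 5.88, 7.29 and 7.07 in M1B26. Every transformed library was above every CT library, and every MC26 library above every M1B26 library. The log2 fold change was 0.81 ± 0.13 in MC26 (edgeR adjusted p 6.74e-04) and 0.47 ± 0.13 in M1B26 (0.0119), and the lines differed from each other by -0.35 ± 0.13 (0.0507). Of the 50-base words in its transcripts, 20.1% also stood in another gene, mostly a read-through transcript, so its reads may have been shared.

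STAT2, the partner of IRF9, was at 32.1, 31.6 and 29.7 CPM in CT, 26.7, 30.6 and 28.4 in MC26 and 25.2, 27.5 and 25.1 in M1B26. M1B26 lay below the range of CT, by -0.26 ± 0.08 on the log2 scale (edgeR adjusted p 0.0140), and MC26 overlapped CT.

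IRF1, a factor induced mainly by interferon gamma, was at 19.6, 18.0 and 19.3 CPM in CT, 20.2, 23.2 and 25.3 in MC26 and 23.3, 19.2 and 21.1 in M1B26. MC26 lay just above the CT range and M1B26 overlapped it. The gene was not called, with log2 fold changes of 0.26 ± 0.10 in MC26 (edgeR adjusted p 0.0569, and 0.0434 by DESeq2) and 0.16 ± 0.10 in M1B26 (0.221). IRF7, which drives interferon alpha genes, was at 4.02, 3.49 and 4.55 CPM in CT, 5.47, 4.81 and 4.40 in MC26 and 4.60, 4.83 and 5.04 in M1B26. MC26 overlapped CT, M1B26 lay just above it, and neither difference passed the test (edgeR adjusted p 0.138 and 0.147).

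Of the 4 cytosolic RNA sensors, none was called in MC26, where 38.7% of all genes were, and 1 was higher in M1B26, as were 25.2% of all genes. DHX58, the LGP2 helicase that modulates the sensors RIG-I and MDA5, was at 0.443, 0.437 and 0.50 CPM in CT, 0.174, 0.340 and 0.612 in MC26 and 0.902, 1.25 and 0.720 in M1B26. All M1B26 libraries were above all others, whereas MC26 ranged from below to above CT, with only 7 counts in its lowest library. M1B26 was higher than CT by 1.03 ± 0.35 (edgeR adjusted p 0.0313) and higher than MC26 by 1.33 ± 0.37 (0.0159). IFIH1, which encodes MDA5, was higher in M1B26 than in MC26 by 0.27 ± 0.09 (edgeR adjusted p 0.0370). DDX58, which encodes RIG-I, and DDX60 were called in no comparison, with log2 fold changes of 0.15 and 0.42 in MC26 and 0.24 and 0.05 in M1B26. DDX60 in MC26 did not overlap CT and had an edgeR adjusted p of 0.0507, and was called by DESeq2 (0.0367), with RLE factors (0.0486), with no filter on low counts (0.0238) and without CT replicate 2 or MC26 replicate 1 or 3. A read-through gene held 42.1% of the 50-base words of DDX58.

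The enzymes that act on double-stranded RNA did not move together. OAS1, OAS2 and OAS3, which make the oligoadenylates that activate RNase L, lie side by side on chromosome 12 between 112905856 and 113011723 (GRCh38). OAS1 was at 12.6, 7.99 and 10.4 CPM in CT, 3.46, 3.19 and 4.07 in MC26 and 6.13, 6.75 and 8.35 in M1B26. The MC26 libraries were the 3 lowest, and M1B26 overlapped the lowest CT library. MC26 was 2.92-fold lower than CT (log2 -1.55 ± 0.18, edgeR adjusted p 8.12e-05), M1B26 1.47-fold lower (-0.56 ± 0.17, 0.0188), and M1B26 was higher than MC26 by 0.99 ± 0.18 (0.0017).

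OAS2 was far less abundant and went the other way in MC26. It was at 0.186, 0.0874 and 0.293 CPM in CT, 0.398, 0.366 and 0.706 in MC26 and 0.180, 0.213 and 0.185 in M1B26, the lowest value resting on 2 counts. MC26 was above both other lines in every library, by 1.20 ± 0.38 against CT (edgeR adjusted p 0.0285), and M1B26 was below MC26 by -1.35 ± 0.40 (0.0201). Without MC26 replicate 3, its highest library, the fold changes were 0.84 (0.131) and -0.98 (0.0881). DESeq2 gave these comparisons an adjusted p of 0.0751 and 0.0512, and edgeR with only the 6 libraries compared gave 0.0508 for MC26 against CT. OAS3, between them on the chromosome, was at 71.9 to 91.1 CPM in the 9 libraries and called in no comparison.

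OASL, a relative that lacks the synthetase activity and enhances RIG-I signalling, was at 0.815, 0.743 and 0.781 CPM in CT, 1.84, 2.28 and 1.60 in MC26 and 1.98, 2.30 and 2.36 in M1B26. Both transformed lines were above CT in every library and overlapped each other. The log2 fold changes were 1.27 ± 0.19 (edgeR adjusted p 3.74e-04) and 1.49 ± 0.18 (7.46e-05). EIF2AK2, the kinase PKR that stops translation, was slightly lower in both lines, by -0.25 ± 0.09 (edgeR adjusted p 0.0474) and -0.28 ± 0.09 (0.0241). ADAR, which edits adenosine to inosine, was lower in M1B26 alone by the test, by -0.22 ± 0.06 against CT (edgeR adjusted p 0.0104) and -0.16 ± 0.06 against MC26 (0.0483).

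**Figure D2:**
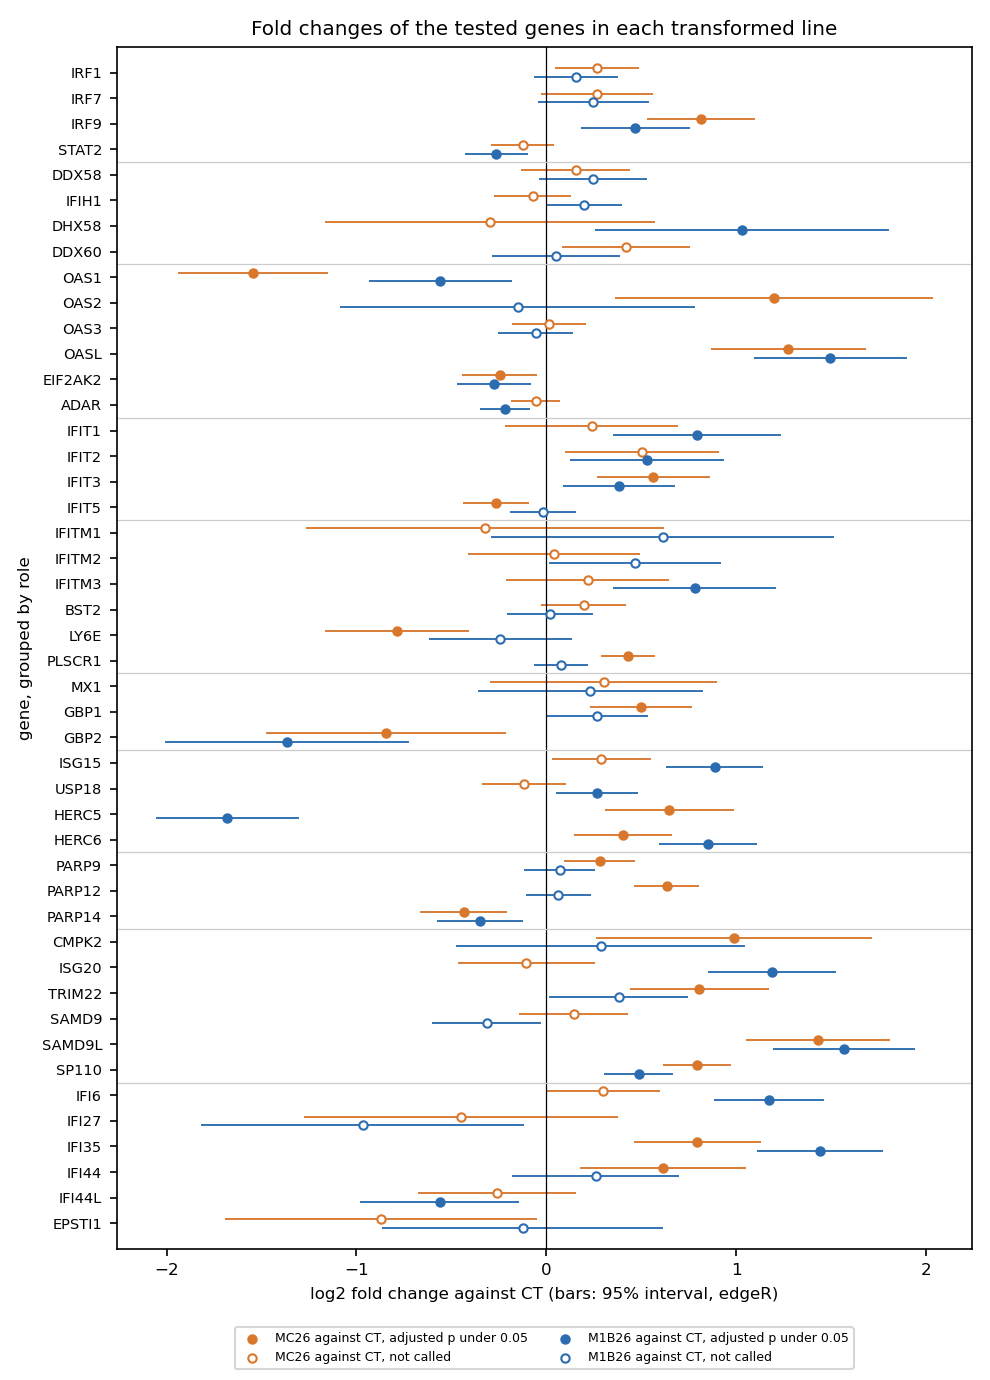
Points show the log2 fold change of each of the 46 tested genes in MC26 (orange) and M1B26 (blue) against CT, filled where the edgeR adjusted p was under 0.05, and bars show 95% intervals. The interval of HERC5 lay above 0 in MC26 and below 0 in M1B26, and OAS1 had the lowest value in MC26 (-1.55) and SAMD9L the highest in M1B26 (1.57).

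The IFIT proteins bind foreign or incompletely capped RNA, and their 4 genes lie together on chromosome 10 between 89283694 and 89421605. IFIT3 was higher in both lines, by 0.56 ± 0.13 in MC26 (edgeR adjusted p 0.0071) and 0.38 ± 0.13 in M1B26 (0.0345). IFIT1 was at 2.66 CPM or more in the M1B26 libraries, above all CT and MC26 libraries, and the differences were 0.79 ± 0.20 (edgeR adjusted p 0.0076) and 0.56 ± 0.20 (0.0473). IFIT2 was called in M1B26, with 0.53 ± 0.18 (edgeR adjusted p 0.0335), and had 0.50 ± 0.19 in MC26 (0.0513). IFIT5 was the exception, being lower in MC26 by -0.26 ± 0.08 (edgeR adjusted p 0.0220), with M1B26 overlapping CT.

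IFITM1, IFITM2 and IFITM3 restrict the fusion of viruses with membranes. They are neighbours on chromosome 11 and share from 15.4% to 29.8% of their 50-base words with other genes, mostly each other, so the split of reads between them is uncertain. IFITM3 was at 385, 258 and 357 CPM in CT, 298, 338 and 527 in MC26 and 552, 557 and 611 in M1B26. All M1B26 libraries were above all others, and the MC26 libraries spread from within the CT range to near M1B26. M1B26 was higher than CT by 0.78 ± 0.20 (edgeR adjusted p 0.0068) and than MC26 by 0.56 ± 0.19 (0.0391). IFITM2, at 326, 221 and 294 CPM in CT, 218, 240 and 407 in MC26 and 388, 378 and 398 in M1B26, was not called, nor was IFITM1. M1B26 lay above the CT range for IFITM2, by 0.47 (edgeR adjusted p 0.0827), and the difference passed with a replicate block (0.0497), with only the 6 libraries compared (0.0076), with no filter on low counts (3.37e-04) and without MC26 replicate 1 or 3. IFITM1 passed only with no filter in M1B26 against CT (edgeR adjusted p 0.0341).

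LY6E, a membrane-anchored protein, was lower in MC26 than in CT by -0.79 ± 0.17 (edgeR adjusted p 0.0045), and M1B26 exceeded MC26 by 0.54 ± 0.17 (0.0272). Its levels were 373, 256 and 372 CPM in CT, 158, 173 and 250 in MC26 and 287, 277 and 282 in M1B26, so MC26 lay below all other libraries. PLSCR1, a phospholipid scramblase, was higher in MC26 by 0.43 ± 0.07 (edgeR adjusted p 4.87e-04), and M1B26 was lower than MC26 by -0.35 ± 0.06 (0.0018). BST2, the tetherin that holds virions at the cell surface, was at 65.7 to 94.6 CPM and was not called.

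Among the antiviral GTPases, GBP1 and GBP2 lie on chromosome 1 between 89051882 and 89150456 and moved apart. GBP2 was at 7.63, 7.21 and 6.70 CPM in CT, 1.99, 4.42 and 5.55 in MC26 and 2.32, 2.51 and 3.47 in M1B26. Every transformed library was below CT, and MC26 was the more spread line. The log2 fold changes were -0.85 ± 0.29 (edgeR adjusted p 0.0370) and -1.37 ± 0.29 (0.0027). In MC26 the value without replicate 1 was -0.52 (0.0538). GBP1 was higher in MC26 by 0.50 ± 0.12 (edgeR adjusted p 0.0082) and had 0.27 ± 0.12 in M1B26 (0.0942). MX1, which traps viral nucleocapsids, was at 0.439 to 0.889 CPM and not called, and MX2 had 4, 1 and 4 counts in all of CT, MC26 and M1B26.

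The ISG15 pathway held the widest difference between the transformed lines. ISG15 is a ubiquitin-like protein, HERC5 the main ligase that attaches it, HERC6 a related ligase, and USP18 the protease that removes it and also dampens the receptor. HERC5 was at 3.26, 4.19 and 3.10 CPM in CT, 5.99, 5.52 and 4.78 in MC26 and 1.06, 1.21 and 0.979 in M1B26. The 3 lines did not overlap, MC26 being the highest and M1B26 the lowest. MC26 was 1.57-fold higher than CT (log2 0.65 ± 0.15, edgeR adjusted p 0.0071), M1B26 was 3.21-fold lower (-1.68 ± 0.17, 2.09e-05), and M1B26 was 5.02-fold lower than MC26 (-2.33 ± 0.17, 5.16e-06).

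HERC6 (chr4:88378739-88443097), the neighbour of HERC5 (chr4:88457119-88506163), shared 0.56% of its 50-base words with other genes and was higher in both lines. It was at 8.62, 9.96 and 8.54 CPM in CT, 11.5, 13.7 and 10.5 in MC26 and 17.3, 14.6 and 16.7 in M1B26, with no overlap between the lines and the opposite order of MC26 and M1B26 to HERC5. Its log2 fold changes were 0.40 ± 0.12 (edgeR adjusted p 0.0192) and 0.85 ± 0.12 (1.60e-04). ISG15 was higher in M1B26 by 0.89 ± 0.12 (edgeR adjusted p 1.17e-04), against 0.29 ± 0.12 in MC26 (0.0746), and M1B26 was higher than MC26 by 0.60 ± 0.12 (0.0023). USP18 was higher in M1B26 by 0.27 ± 0.10 (edgeR adjusted p 0.0433), and 23.2% of its 50-base words were shared with other genes. That call was lost by DESeq2 (0.0507). It was also lost in edgeR with a replicate block (0.0676), only the 6 libraries compared (0.0531), no filter on low counts (0.118) or total counts alone (0.181).

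**Figure D3:**
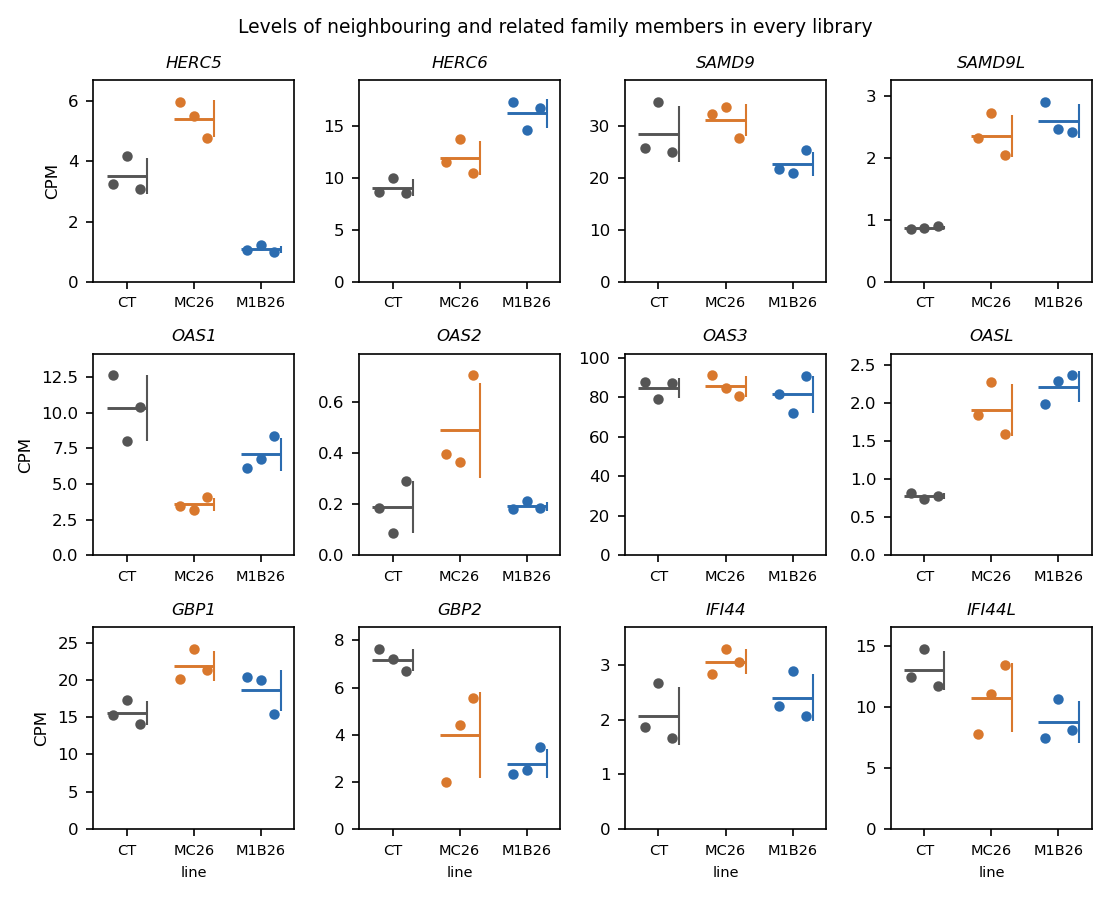
CPM (vertical axes, each from 0) of 12 related genes in CT, MC26 and M1B26, with 1 point per library, a horizontal line at the mean and a vertical bar of 1 SD. HERC5 and HERC6, OAS1 and OAS2, and GBP1 and GBP2 changed in opposite directions in at least 1 line, and SAMD9L was above CT in all 6 transformed libraries, where SAMD9 overlapped CT in MC26.

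Of the PARP enzymes, which transfer ADP-ribose, PARP12 was higher in MC26 by 0.63 ± 0.08 (edgeR adjusted p 1.14e-04), and M1B26 differed from MC26 by -0.57 ± 0.08 (2.76e-04). PARP9 was higher in MC26 by 0.28 ± 0.08 (edgeR adjusted p 0.0228). PARP14, near PARP9 on chromosome 3, was instead lower, by -0.44 ± 0.10 in MC26 (edgeR adjusted p 0.0069) and -0.35 ± 0.10 in M1B26 (0.0164).

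SAMD9 and SAMD9L, neighbouring genes whose products restrict poxviruses and cell growth, lie on chromosome 7 between 93099513 and 93148385. SAMD9L was at 0.843, 0.874 and 0.903 CPM in CT, 2.31, 2.72 and 2.05 in MC26 and 2.91, 2.46 and 2.42 in M1B26. Both transformed lines were more than 2-fold above CT and overlapped each other, with log2 fold changes of 1.43 ± 0.17 (edgeR adjusted p 1.03e-04) and 1.57 ± 0.17 (3.32e-05). SAMD9 was at 21.0 to 34.7 CPM in the 9 libraries and did not differ from CT by the test (0.14 ± 0.13 and -0.31 ± 0.13, edgeR adjusted p 0.416 and 0.0674), but was lower in M1B26 than in MC26 by -0.46 ± 0.13 (0.0174). No 50-base word of either gene was shared with another gene.

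ISG20, a ribonuclease, was raised in M1B26 and not in MC26. It was at 1.29, 1.31 and 1.32 CPM in CT, 1.09, 1.15 and 1.39 in MC26 and 3.20, 2.79 and 2.92 in M1B26. The M1B26 libraries stood clear of the other 6, which overlapped, and the log2 fold changes of M1B26 were 1.19 ± 0.15 against CT (edgeR adjusted p 1.08e-04) and 1.29 ± 0.16 against MC26 (1.32e-04). SP110, a nuclear body protein, was higher in both lines, by 0.79 ± 0.08 (edgeR adjusted p 3.41e-05) and 0.49 ± 0.08 (6.30e-04), with MC26 the higher of the lines (-0.31 ± 0.08 for M1B26 against MC26, 0.0116). TRIM22, a ubiquitin ligase, was higher in MC26 by 0.81 ± 0.17 (edgeR adjusted p 0.0032). M1B26, at 14.0 to 17.6 CPM, lay above the CT range of 11.4 to 12.7, by 0.38 (edgeR adjusted p 0.0793). The M1B26 difference passed with only the 6 libraries compared (0.0120), with no filter on low counts (0.0083) and without MC26 replicate 1 or 3.

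CMPK2, a mitochondrial nucleotide kinase, was called in MC26 with 0.99 ± 0.33 (edgeR adjusted p 0.0349), at no more than 0.523 CPM, and DESeq2 gave 0.148. RSAD2, the antiviral enzyme viperin, lies beside CMPK2 on the opposite strand and shares 351 exonic bases with it. It had 0, 1 and 0 counts in CT, 9, 10 and 3 in MC26 and 2, 0 and 6 in M1B26, too few to pass the filter. Its summed level in MC26 was 31.8 times that in CT, with an exact interval of 5.14 to 1312 for counting error only. With no filter on low counts the difference had an edgeR adjusted p of 4.86e-04 in MC26 and 0.0838 in M1B26.

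IFI6, a membrane protein of the endoplasmic reticulum that hinders flavivirus replication, was at 2.52, 2.58 and 2.65 CPM in CT, 3.23, 3.32 and 2.99 in MC26 and 5.82, 6.63 and 5.04 in M1B26. The lines did not overlap and M1B26 was the highest, with log2 fold changes of 1.17 ± 0.13 against CT (edgeR adjusted p 4.29e-05) and 0.87 ± 0.13 against MC26 (5.38e-04), while MC26 against CT gave 0.30 ± 0.14 (0.104). IFI35, a partner of other interferon-induced proteins, was at 5.59, 4.32 and 6.21 CPM in CT, 10.8, 10.1 and 7.60 in MC26 and 14.4, 15.8 and 14.5 in M1B26. Again no line overlapped another, and the log2 fold changes against CT were 0.79 ± 0.15 (edgeR adjusted p 0.0020) and 1.44 ± 0.15 (2.45e-05).

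IFI35 and DHX58 lie on chromosome 17, where the median log2 fold change of 859 tested genes was 0.47 for M1B26 against CT and 0.48 against MC26. Its part in these 2 results was not tested. The median of the other 44 genes of the list was 0.25 in MC26 and 0.21 in M1B26 against CT. IFI44 was higher in MC26 by 0.61 ± 0.20 (edgeR adjusted p 0.0311), and its neighbour IFI44L was lower in M1B26 by -0.56 ± 0.19 (0.0306). IFI27, a mitochondrial protein strongly induced by interferon alpha, and EPSTI1 were at no more than 0.586 and 0.472 CPM and called in no comparison. M1B26 lay below the CT range for IFI27, by -0.97 on the log2 scale (edgeR adjusted p 0.0583). That difference passed under total counts alone (0.0400), with only the 6 libraries compared (0.0227) and without CT replicate 2 (0.0459) or MC26 replicate 1 (0.0235). XAF1, an antagonist of the apoptosis inhibitor XIAP, had 1 count in all 9 libraries together. The chemokines CXCL10 and CXCL11, which draw T cells through CXCR3, had 13 and 10 counts in all.

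Some of these calls were lost when 1 library was left out, in that the adjusted p of edgeR rose above 0.05. Such fits have fewer samples, so a lost call need not have rested on that library. CMPK2 in MC26 against CT had a log2 fold change of 0.99 with and without M1B26 replicate 1, but its call was lost without it (edgeR adjusted p 0.0503). For MC26 against CT a call was lost for CMPK2 (without any CT library, MC26 replicate 2 or 3 or M1B26 replicate 1, up to 0.161), EIF2AK2 (any but CT replicate 3 and M1B26 replicate 3, up to 0.145) and GBP2 (any CT library, MC26 replicate 1 or 2 or M1B26 replicate 2, up to 0.103). It was also so for OAS2 (CT replicate 1 or 2 or MC26 replicate 3, up to 0.131), IFIT5 (CT replicate 1 or 2 or MC26 replicate 1 or 3, up to 0.0651), and, without CT replicate 1 or 3 or MC26 replicate 2, for HERC6, IFI44 and PARP9 (up to 0.0816, 0.115 and 0.0786). For M1B26 against CT, the calls of DHX58 (any CT library or M1B26 replicate 1 or 2, up to 0.126), USP18 (CT replicate 1 or 3, MC26 replicate 2 or M1B26 replicate 1 or 2, up to 0.128), IFI44L (CT replicate 1 or 2 or M1B26 replicate 1 or 3, up to 0.115) and IFIT3 (CT replicate 1 or 3 or M1B26 replicate 1 or 3, up to 0.115) were lost. So were those of IFIT2 (CT replicate 3 or M1B26 replicate 2 or 3, up to 0.139), EIF2AK2 and OAS1 (CT replicate 2 and CT replicate 1 in turn, or M1B26 replicate 1 or 2, both up to 0.101), STAT2 (CT replicate 1 or M1B26 replicate 1 or 3, up to 0.0581) and PARP14 (M1B26 replicate 1 or 2, up to 0.0751). ADAR without M1B26 replicate 2 (0.0531) and IRF9 without CT replicate 3 (0.0504) narrowly missed.

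For M1B26 against MC26, the calls of IFITM3 and LY6E were lost without MC26 replicate 1 or 2 or any M1B26 library (edgeR adjusted p up to 0.137 and 0.103), that of OAS2 without MC26 replicate 3 or any M1B26 library (up to 0.0881) and that of ADAR without any library but CT replicate 2 (up to 0.17). IFIT1 was lost without any but CT replicate 2 and MC26 replicate 2 (edgeR adjusted p up to 0.137), and IFIH1 without CT replicate 1 or 3, any MC26 library or M1B26 replicate 3 (up to 0.132). IFIT5 was lost without CT replicate 1, MC26 replicate 1 or 3 or M1B26 replicate 2 or 3 (edgeR adjusted p up to 0.092), SAMD9 without MC26 replicate 2 or M1B26 replicate 1 or 2 (up to 0.0694) and DHX58 without MC26 replicate 2 or M1B26 replicate 2 (up to 0.067). HERC5, IFI35 and SP110 kept their call in all 3 comparisons in each of the 9 fits without 1 library, and OASL and SAMD9L kept theirs against CT in both lines.

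Levels within CT differed widely between the genes. Exonic lengths merged the exons of all annotated transcripts of a gene, which can exceed the length of 1 mRNA and then lowers the value per kilobase. Per kilobase of exonic sequence, IFITM2, LY6E, IFITM3, BST2 and ADAR had a mean above 10 CPM in each line, from 35.9 for ADAR to 175 for IFITM2 in CT, and 23 of the 51 were under 1 CPM per kilobase in CT. The 5 most abundant genes were the same in the 3 lines, with ADAR the lowest of them in each, at 34.5 CPM per kilobase in MC26 and 30.9 in M1B26. MX1, OAS2, RSAD2, MX2, CXCL10, CXCL11 and XAF1, several of which are among the most inducible genes of the interferon response, were under 0.05 CPM per kilobase in every line.

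The MC26 libraries differed among themselves in these genes. Relative to CT, the median log2 deviation of the 46 genes was 0.15, 0.27 and 0.27 in MC26 replicates 1 to 3. Over all genes tested it was -1.88e-04, 0.0063 and 0.0047. Replicate 3 was at least 1.5-fold above the mean of the other MC26 libraries for 8 genes and below it for none (17.4%, against 10.8% of all genes in either direction). These were DHX58, OAS2, IFITM1, IFITM2, IFITM3, LY6E, GBP2 and EPSTI1, from 1.51-fold for LY6E to 3.06-fold for IFITM1, with TRIM22 and IFI27 just short of that limit (log2 0.58 and 0.57) and IFIT1 just short of it in the other direction (-0.57). Replicate 1 was at least 1.5-fold lower than the others for 6 genes, DHX58, IFITM1, GBP2, IFI27, IFI44L and EPSTI1, and higher for none (13%, against 9.83%). Replicate 2 was higher for CMPK2 and IFI27 alone (4.35%, against 5.9%).

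The median coefficient of variation of the 46 genes was 12.0% in MC26, 10.4% in CT and 9.84% in M1B26, beside 8.50%, 9.65% and 7.68% over all genes. IFITM1 was at 3.10, 2.05 and 2.01 CPM in CT, 0.870, 1.41 and 3.48 in MC26 and 3.34, 2.60 and 5.10 in M1B26. MC26 replicates 1 and 2 were below CT and replicate 3 above it. Without replicate 3, IFITM1 was lower in MC26 than in CT by -1.09 (edgeR adjusted p 0.0296), M1B26 exceeded MC26 by 1.70 (0.0030), and EPSTI1 was lower in MC26 than in CT by -1.29 (0.0338). Also called without it were DDX60 and IFIT2 in MC26 against CT (0.48 and 0.60, edgeR adjusted p 0.0431 and 0.0346), IFITM2 and TRIM22 in M1B26 against CT (0.47 and 0.38, 0.0073 and 0.0209), and IFITM2 and IRF9 in M1B26 against MC26 (0.76 and -0.42, 0.0015 and 0.0276). Without replicate 1, IRF1 and DDX60 were called in MC26 against CT (0.35 and 0.50, edgeR adjusted p 0.0227 and 0.0430) and IFITM2, TRIM22 and IFI27 in M1B26 against CT (0.47, 0.39 and -0.96, 0.0496, 0.0224 and 0.0235). Called in M1B26 against MC26 without replicate 1 were GBP2, TRIM22 and IFI44L (-0.84, -0.60 and -0.49, edgeR adjusted p 0.0067, 0.0070 and 0.0421). No gene was gained without replicate 2. Several markers of different cell types rose from MC26 replicate 1 to 3. The fibroblast marker DCN was at 5.45, 15.9 and 47.3 CPM, the epithelial marker EPCAM at 11.7, 13.5 and 19.1, and CD14 at 9.72, 12.0 and 17.8. PECAM1 and LUM rose too, at no more than 0.494 and 0.306 CPM. The other epithelial markers did not rise steadily. The fibroblast marker COL1A1 had the opposite order, at 11.2, 9.62 and 8.35 CPM, and COL1A2 and COL3A1 had at most 1 count in any library. The part of these markers in the differences was not tested.

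**Figure D4:**
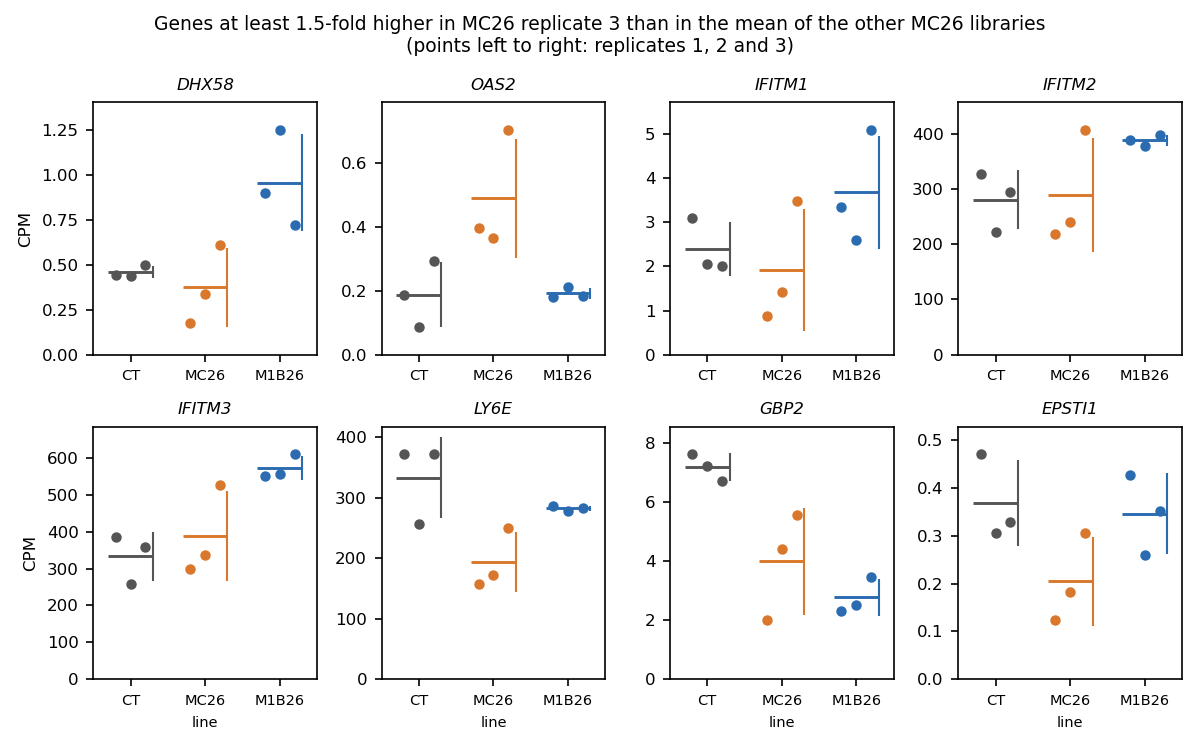
CPM (vertical axes, each from 0) of the 8 genes at least 1.5-fold higher in MC26 replicate 3 than the mean of the other MC26 libraries, with 1 point per library from replicate 1 on the left to 3 on the right, a line at the mean and a bar of 1 SD. IFITM1, IFITM2 and IFITM3 of MC26 replicates 1 and 2 lay below or within the CT range and those of replicate 3 above it.

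The interferon ligands, receptors and signalling genes outside the list that were examined numbered 44. Of 21 interferon genes, 18 were at 0 in every library, IFNB1 and IFNK had 1 count each in all, and IFNE had 17, 10 and 16 counts in CT, MC26 and M1B26. No ligand was detected beyond these counts at this depth. The interferon alpha genes, IFNB1, IFNW1 and IFNE lie on chromosome 9 between 21077104 and 21482313, near CDKN2A, which starts at 21967752. Whether the deletion of CDKN2A in MCF10A reaches any of them was not tested. The other 23 genes were tested, and 14 were called in MC26 (6 higher, 8 lower), which is 60.9% against 38.7% of all genes. In M1B26 11 were called (5 higher, 6 lower), or 47.8% against 48.9%, and between the transformed lines 11 (6 higher and 5 lower in M1B26), or 47.8% against 39.5%.

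Receptor genes differed by line. IFNAR1, a subunit of the type I receptor, was lower in both, by -0.23 ± 0.07 in MC26 (edgeR adjusted p 0.0305) and -0.65 ± 0.07 in M1B26 (4.41e-05). Its partner IFNAR2 was lower in M1B26, by -0.44 ± 0.08 (edgeR adjusted p 8.20e-04). IFNGR2, of the gamma receptor, and IFNLR1, of the lambda receptor, were lower in MC26 (-0.51 ± 0.10 and -0.48 ± 0.16, edgeR adjusted p 0.0021 and 0.0306) and higher in M1B26 (0.35 ± 0.10 and 0.55 ± 0.15, 0.0119 and 0.0109). Both were therefore higher in M1B26 than in MC26, by 0.86 ± 0.10 and 1.02 ± 0.15 (edgeR adjusted p 9.14e-05 and 5.14e-04). IL10RB, the other lambda subunit, was lower in MC26 by -0.51 ± 0.07 (edgeR adjusted p 3.77e-04), with M1B26 overlapping CT. JAK1, the shared kinase, was lower in both lines, by -0.23 ± 0.07 (edgeR adjusted p 0.0247) and -0.50 ± 0.07 (2.04e-04), and TYK2 was higher in MC26 by 0.31 ± 0.08 (0.0111).

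Among the sensors of nucleic acid and their adaptors, CGAS, which senses cytosolic DNA, was at 17.9 to 18.4 CPM in CT, 31.2 to 35.4 in MC26 and 34.8 to 41.8 in M1B26. Both transformed lines stood clear of CT, by 0.86 ± 0.08 (edgeR adjusted p 2.04e-05) and 1.07 ± 0.08 (2.92e-06). Its adaptor STING1 was higher in both lines too, by 0.45 ± 0.11 (edgeR adjusted p 0.0066) and 0.75 ± 0.11 (1.81e-04). MAVS, the adaptor of the RNA sensors, was lower in M1B26 by -0.42 ± 0.06 (edgeR adjusted p 3.13e-04). IFI16 and IRF3 were higher in MC26 (0.56 ± 0.11 and 0.43 ± 0.09, edgeR adjusted p 0.0018 and 0.0041), the kinase gene TBK1 was lower there (-0.30 ± 0.09, 0.0252) and its relative IKBKE was higher in M1B26 (0.48 ± 0.10, 0.0019). Of the inhibitors, SOCS1 was higher in MC26 by 1.08 ± 0.37 at under 1 CPM (edgeR adjusted p 0.0396), PIAS1 was lower in both lines by -0.52 ± 0.08 and -0.55 ± 0.08 (6.55e-04 and 2.58e-04), and SAMHD1 was lower by -0.41 ± 0.07 and -0.31 ± 0.07 (0.0010 and 0.0037). IRF2 was higher in M1B26 than in MC26 by 0.34 ± 0.10 (edgeR adjusted p 0.0164).

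**Figure D5:**
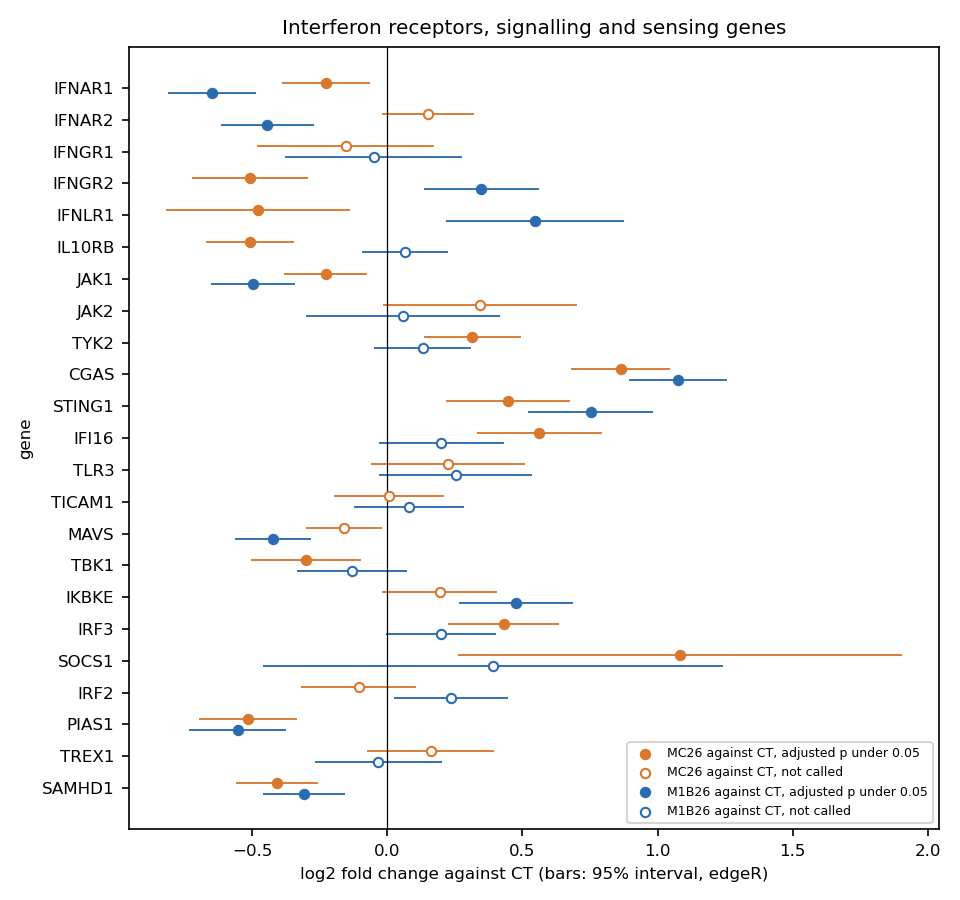
Points show the log2 fold change against CT of the 23 tested interferon receptor, signalling, sensing and inhibitor genes in MC26 (orange) and M1B26 (blue), filled where the edgeR adjusted p was under 0.05, with bars of 95% intervals. CGAS and STING1 lay above 0 in both lines, IFNAR1, JAK1 and PIAS1 below 0 in both, and IFNGR2 and IFNLR1 on opposite sides.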

How the data were processed

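Poly-A RNA of 9 MCF10A-derived cultures was sequenced. The deposited values were raw whole-number counts per gene symbol. According to the submitters' processing notes and the study's methods, the authors used STAR 2.7.3a and Salmon 1.1.0 on GRCh38 with GENCODE, but which program made the deposited counts, and whether strand was used, is not given in the sources used here. No column of another sample and no entry without a gene name was found.

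The tests used edgeR 4.0.16 (R 4.3.3). After filterByExpr with a minimum count of 10, TMM factors were 0.968 to 1.07, and glmQLFit and glmQLFTest were run with line as the only term on all 9 libraries, 2-sided. The SE was the absolute log2 fold change divided by the square root of F. Levels in CPM used TMM-scaled library sizes, deviations from CT log2 CPM with a prior count of 2. Depth limited detection to 3 counts per library.

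The members, gene lists and tests were chosen with earlier results of these data known. All 51 symbols could be named. Levels per library were printed for those called with a difference of 2-fold or more, and for IRF1, IRF7, IRF9 and STAT2. A few results are not reported here. A few others (IFITM1 to IFITM3, LY6E and HERC6) were given in full after their values were seen. Positions, exonic lengths and shared 50-base words were taken from GENCODE release 44 on GRCh38, in which DDX58 is RIGI. Promoters were RefSeq's.

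The results were recomputed with DESeq2 1.42.0, a replicate block, only the 6 libraries compared, total counts or RLE scaling, no filter on low counts or a minimum mean of 50, a prior count of 0.5, and each library left out in turn. Pairing of equal replicate numbers was checked by correlating deviations from the line means.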

Additional observations from a re-analysis of the deposited data

Results flagged for a closer look

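For 20 of the 46 tested genes the difference between the transformed lines was itself tested, by edgeR's quasi-likelihood test of M1B26 against MC26, and passed an adjusted p of 0.05, so their differences from the shared CT libraries were unequal. The log2 fold changes of M1B26 against MC26 were positive for DHX58 (1.33), ISG20 (1.29), OAS1 (0.99), IFI6 (0.87), IFI35 (0.65), ISG15 (0.60), IFITM3 (0.56), IFIT1 (0.56), LY6E (0.54), HERC6 (0.45), USP18 (0.38), IFIH1 (0.27) and IFIT5 (0.24). They were negative for HERC5 (-2.33), OAS2 (-1.35), PARP12 (-0.57), SAMD9 (-0.46), PLSCR1 (-0.35), SP110 (-0.31) and ADAR (-0.16). Of these, HERC5, HERC6, IFI35, IFI6, ISG15, ISG20, OAS1, PARP12, PLSCR1, SP110 and USP18 passed in every one of the 9 fits that left out 1 library and under every other alternative that gave a value.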

How the results depend on the processing

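No called gene of the list changed sign under any alternative. In MC26 against CT 14 of the 22 calls, in M1B26 against CT 12 of 23 and in M1B26 against MC26 11 of 20 held in all 9 fits without 1 library and all other alternatives. Leaving out 1 library at a time gave 15 to 22, 15 to 26 and 12 to 23 called genes in these comparisons. The share of all genes called in these fits ran from 28.3% to 38.1%, 39.4% to 49.4% and 28.1% to 44.8%. The medians of the list were 0.23 to 0.27, 0.16 to 0.24 and -0.08 to -0.0019. The count fell by more than 1.5 times without M1B26 replicate 1 (15 in M1B26 against CT, beside 40.3% of all genes). It also did so without M1B26 replicate 2 or 3 (12 and 13 in M1B26 against MC26, beside 29.5% and 31.9%). These fits have fewer samples. Under total counts alone the medians against CT were 0.18 in MC26 and 0.15 in M1B26, beside -0.0752 and -0.0914 over all genes, which moved down as well. The per-library medians of MC26 were 0.060, 0.20 and 0.20, and the share of higher calls fell, as given above. DESeq2 called 23, 22 and 19 genes of the list (32.1%, 40.2% and 36.8% of all genes). With RLE factors 24, 23 and 21 were called (38.7%, 48.8% and 39.7%), and with total counts 19, 22 and 18 (38.6%, 49.8% and 39.5%). No filter, with 51 tested, gave 24, 26 and 22 (21.3%, 26.6% and 21.3%). A mean of at least 50 counts, with 40 tested, gave 20, 22 and 18 (40.9%, 52.5% and 43.8%). Fits of only the 6 libraries compared called 18, 25 and 19 (35.4%, 48.9% and 42.3%). Deviations of equal replicate numbers correlated at -0.11 to 0.14 over genes, and in M1B26 against MC26 every library correlated best with its own number. With 3 libraries per line, such weak correlations cannot exclude that equal numbers share some handling. A fit with the replicate block called 20, 22 and 19 (37.4%, 47.8% and 38.2% of all genes). Depth limits the calls of OAS2, DHX58 and CMPK2, which rest on few counts.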
